A study of Mus musculus with 4 samples.

Results

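The regions described here are 2910 arrays of short loci that carry a genome position as their name in place of a gene symbol. Each library's table held 115821 rows, 54838 of them genes and 60983 of them position-named loci, with chromosome, start, end and strand on the mouse build GRCm38. Loci on the same strand were chained wherever the gap to the next locus was at most 1000 bp, and a chain was kept as an array if it held at least 3 loci and every locus was shorter than 1500 bp. This gave 14540 loci, chosen by position and length alone. The data were RNA sequencing of Hepa1-6, a cell line from a mouse hepatocellular carcinoma. Both control libraries came from cells labelled shNC with the genotype Setdb1 Wild type, and both knockdown libraries from cells labelled shSet with the genotype Setdb1 knockdown, where a short hairpin RNA lowers the Setdb1 messenger RNA. All 4 libraries share the cell line, and no treatment or time point is named. The study's design text calls the cells subclones, and the labels leave unsaid whether libraries of a group are separate cultures, and the p-values below therefore cover the spread between libraries, technical or biological.

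SETDB1 is a histone methyltransferase that places the repressive H3K9me3 mark, and it is recruited to many endogenous retroviruses by KRAB zinc finger proteins and their partner TRIM28. Endogenous retroviruses are inherited copies of retroviral genomes, with a gag region for structural proteins, a pro and pol region for protease, reverse transcriptase and integrase, and often an env region. In many retroviruses the ribosome slips 1 base back between gag and pro at a short run of identical bases, and old copies collect stop codons that break the open frames into pieces. The sources used here do not say what the position-named loci are.

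The loci had the build of open reading frames. All 60983 spans were multiples of 3. Member loci were 243 to 1497 bp long with a median of 411 bp, and an array spanned 669 to 8238 bp with a median of 2811 bp and held 3 to 15 loci with a median of 4. There were 954 arrays of 3 loci, 510 of 4, 371 of 5 and 433 of 6, and 72 arrays had 10 or more. Of 11630 junctions between neighbouring loci, 2166 (18.6%) were a gap of exactly 3 bases, the commonest spacing, and the next commonest, a gap of 66 bases, was found 188 times. Overlapping neighbours made up 3108 junctions (26.7%). The same set of lengths and offsets occurred in more than 1 array for 668 of the 2910 arrays (23.0%), and 28 arrays shared the commonest one. By the GENCODE M21 annotation, 2487 arrays (85.5%) were intergenic, 229 lay in an intron of a gene on the opposite strand, 94 in an intron on the same strand, 69 overlapped an exon on the same strand and 31 an exon on the opposite strand. Chromosome Y held 898 arrays, the most, and chromosome 19 held 37, the fewest.

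Sequence could be read for members that lie inside annotated exons, from the GENCODE M21 transcripts on GRCm38. Of 117 member loci fully covered in this way, 117 had no stop codon in their frame. Of 15 covered 3-base gaps, in 13 arrays, 15 were a stop codon on the strand of the array: 6 TAA, 3 TAG and 6 TGA. The first sequence below shows such a gap, at chr11:86206960-86207019 on the plus strand inside the noncoding gene Brip1os, with the 3 bases between neighbouring loci in capitals. The second shows the other recurring junction, an overlap, at chr5:145504097-145504260 on the minus strand inside an exon of Gm42863, where a locus of 1440 bp is followed by one of 927 bp that begins 154 bases before the first ends. Its capitals mark the 122 of those 154 bases that the transcript covers, after 42 bases of the first locus alone.

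Brip1os gap: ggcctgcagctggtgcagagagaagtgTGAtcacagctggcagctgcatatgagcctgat

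Gm42863 junction: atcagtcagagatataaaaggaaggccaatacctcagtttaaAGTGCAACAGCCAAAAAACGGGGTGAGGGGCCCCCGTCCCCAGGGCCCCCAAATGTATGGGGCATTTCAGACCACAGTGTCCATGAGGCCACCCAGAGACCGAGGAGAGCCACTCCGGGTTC

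The loci on either side of the Brip1os gap keep the same frame, because 3 bases separate them. In the Gm42863 junction the second locus is read in a frame 1 base back from the first, since 154 leaves a remainder of 1 when divided by 3. The heptamer AAAAAAC, a known slippage sequence of retroviruses, was looked for after the sequence had been seen. It occurred 1 time on the sense strand of the capitals and 0 times on the other strand. On either strand it was in 2.72% of 32851 windows of 122 bases taken from the start of RefSeq promoter sequences (GRCm38.p6), and in the last 122 bases of 5 of the 117 covered member loci. The array with the Gm42863 junction (chr5:145500729-145505504, 6 loci) had 0 and 0 expected counts in controls and 9.21 and 15 in knockdown libraries, and was below the filter for testing. The Brip1os array (chr11:86201951-86208867, 9 loci) had 42.4 and 102 counts in controls and 74.0 and 51.4 in knockdown libraries, and did not differ past the threshold (log2 fold change -0.18, adjusted p = 0.843, edgeR quasi-likelihood test).

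The libraries held 19513567 to 19615440 expected counts, so that 1 CPM (the usual unit of counts scaled to a common library total) stood for about 19.6 counts. Setdb1, the targeted gene, was at 51.2 and 59.4 CPM in controls and at 10.96 and 8.59 CPM in knockdown libraries, 17.7% of the control mean (log2 fold change -2.48 ± 0.18 SE, adjusted p = 1.3e-04, edgeR). Of 12 hepatocyte or hepatoma markers, 8 were above 1 CPM in every library, and their summed level was 4349 to 4648 CPM in controls and 4706 to 5241 CPM in knockdown libraries. Leukocyte markers summed to 2.32 to 5.19 CPM in controls and 5.79 to 9.99 CPM in knockdown libraries, with Cd3e at 0. Endothelial markers summed to 0.41 to 0.51 and 1.07 to 2.14 CPM, and cholangiocyte markers to 19.2 to 19.6 and 37.2 to 38.5 CPM. Fibroblast or stellate cell markers summed to 1441 to 1550 and 1623 to 1650 CPM, with Lrat at 0, but only 1 of these 5 was above 1 CPM in every library. That level was reached by 1 of 6 leukocyte, 0 of 4 endothelial and 2 of 3 cholangiocyte markers. The part of the marker differences between groups in the array results was not tested. In bulk libraries, more cells that hold a transcript and more of it per cell cannot be told apart.

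Few of the arrays gave any reads. For these numbers expected counts were rounded to whole numbers, so a small fraction of a count stands as 0. Rounded counts were 0 in every library for 2509 of the 2910 arrays and for 13664 of the 14540 loci, although 1 count was worth only 0.051 CPM. At least 1 count was seen in 192 and 222 arrays in the controls and in 267 and 284 arrays in the knockdown libraries. Genes with a count were also more in the knockdown libraries, 18230 and 18059 beside 17522 and 17535 in the controls. With at least 3 counts in both libraries of one group and 0 in both of the other, 18 arrays were found on the knockdown side and 1 on the control side. With at least 5 counts the numbers were 9 and 0. The share of all rows with such one-sided counts was not worked out. The 3 arrays with the most loci, 2 of 15 loci on chromosome 12 (chr12:19537316-19544276 and chr12:20122460-20129420, minus strand) and 1 of 14 loci on chromosome 7 (chr7:86008706-86015969, plus strand), had 0 counts throughout. RSEM, the program named in the submitters' notes, divides reads that fit several places, so a count of 0 says how the reads were assigned and not that a copy is silent.

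Summed over all 2910 arrays, the level was 182 and 215 CPM in controls and 332 and 333 CPM in knockdown libraries, means of 198 ± 23.6 and 333 ± 0.77 (SD, n = 2 each). The groups did not overlap, and the ratio of the means was 1.68. No test was made, since the smallest exact permutation p for groups of this size is 0.333. A single array, called 11a below, carried 89.5 and 118 CPM of the control sums and 144 and 126 CPM of the knockdown sums. Without it the ratio was 2.08 (94.9 ± 3.76 against 198 ± 13.4 CPM). The arrays called higher in the test below summed to 5.67 and 2.99 CPM in controls and 105 and 120 CPM in knockdown libraries. All others without 11a summed to 86.6 and 94.6 CPM in controls and 83.4 and 87.2 CPM in knockdown libraries, a ratio of 0.94. This split was made by the calls in these same libraries. That choice raises the ratio of the called arrays and lowers that of the others, so both sums are a description.

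**Figure D1:**
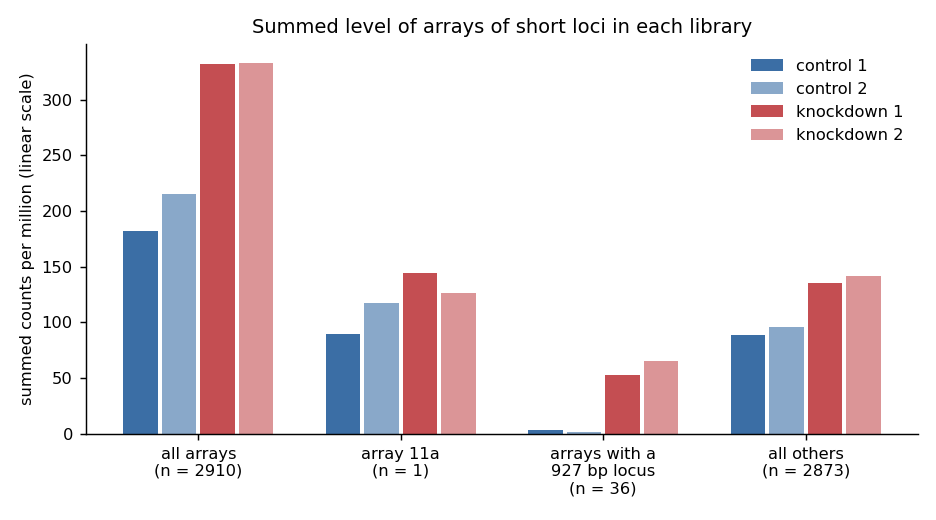
Bars give the summed level in CPM (linear axis from 0) in each of the 4 libraries, for all 2910 arrays, for array 11a alone, for the 36 arrays that hold a locus of 927 bp, and for the 2873 others. The 36 arrays are at 3.28 and 1.55 in the controls and at 53.0 and 65.1 in the knockdown libraries.

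Single loci were tested together with all genes and other loci in 1 edgeR quasi-likelihood fit, with p-values adjusted by the Benjamini-Hochberg method over all 13859 rows that passed a filter near 10 counts (0.511 CPM) in 2 libraries. Of the 14540 member loci, 83 passed this filter, 44 were higher in the knockdown at an adjusted p under 0.05, 0 were lower and 39 did neither. Over all tested rows 5.75% were called higher and 1.8% lower, and their median log2 fold change was -0.0043. Of the 83 loci, 43 passed the filter only through the knockdown libraries and so had to be higher there. Of the 44 called loci, 2 had at least 1 library of each group at the filter level. Without control replicate 2 the number of loci called higher was 15. Fewer of all rows were called higher there as well. The 44 called loci lay in 26 arrays.

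Because loci of an array overlap or adjoin, the counts of each chain were also summed and tested as 1 row, among 13908 rows. Of the 2910 arrays 69 passed the filter, 29 were higher in the knockdown, 1 was lower and 39 did neither, where 5.27% of all tested rows were called higher and 1.75% lower. The 69 fitted differences ranged from -2.02 to 9.17 with a median of 0.41, beside a median of -0.0062 over all rows. Both knockdown libraries lay above both controls in 36 of the 69 arrays, beside 24.8% of all tested rows. The filter was passed only through the knockdown libraries by 29 arrays and only through the controls by 7. The other 33 had at least 1 library of each group at the filter level. Of those 33, 2 were higher and 1 was lower, and their median was -0.18. Both knockdown libraries lay above both controls in 7 of the 33. In the arrays that passed only through the knockdown libraries, the filter fixed that order. Without control replicate 2 the number of arrays called higher was 11, and these were the arrays called in each of the 4 fits that leave out 1 library. Fewer of all rows were also called higher without control replicate 2. Of the 29 called arrays, 27 had counts that were not whole in at least 1 library, that is, reads that the estimate divided among places.

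**Figure D2:**
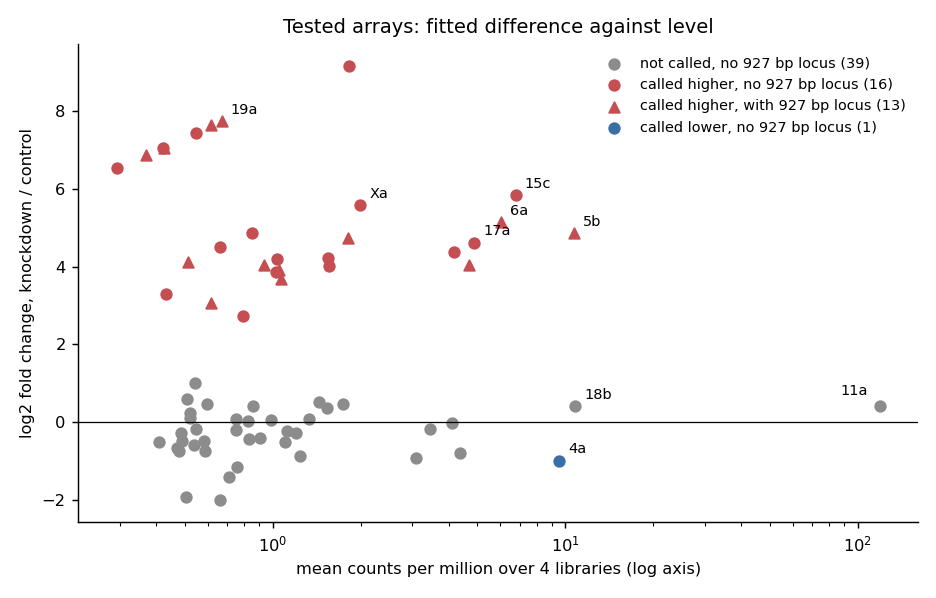
Each point is 1 of the 69 tested arrays, with its mean level over the 4 libraries on the x axis (CPM, log axis) and the fitted log2 fold change of knockdown over control on the y axis; triangles hold a 927 bp locus. The 29 arrays called higher lie at 2.74 or more, the 1 called lower (4a) at -0.995 and the arrays not called at or below 1.01, and the 8 called arrays with 0 counts in both controls have fitted values that depend on the prior count.

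The arrays called higher are named by chromosome and a letter. The 15 with the smallest p are given with their values. Array 6a (chr6:4175015-4178651, plus strand, 5 loci, intergenic) had 7.88 and 4.74 expected counts in controls and 207 and 252 in knockdown libraries, a log2 fold change of 5.14 ± 0.36 (SE, adjusted p = 9.05e-05, edgeR). Array 15c (chr15:97481732-97486508, minus strand, 7 loci, intergenic) had 7.75 and 1 counts in controls and 245 and 277 in knockdown libraries, a log2 fold change of 5.84 ± 0.43 (adjusted p = 9.23e-05, edgeR). The value of 15c was 7.90 without control replicate 1 and 5.01 without control replicate 2. Both arrays had few assigned counts in the controls and did not overlap between groups. Both passed the filter only through the knockdown libraries, which fixes the lack of overlap. Their nearest annotated genes, the pseudogenes Gm44055 and Gm49506, were 75437 and 71283 bp away with at most 2 counts in any library.

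Array 5b (chr5:15683516-15688291, minus strand, 5 loci) was the most abundant of the called arrays, with 23.7 and 4.36 counts in controls and 295 and 516 in knockdown libraries (log2 fold change 4.87 ± 0.50, adjusted p = 3.82e-04, edgeR). Its value was 6.66 without control replicate 1 and 4.08 without control replicate 2. It lies in an intron of Speer4cos, an antisense gene on the other strand that had 0 counts. Array 17a (chr17:48176485-48178992, minus strand, 4 loci) had 9.89 and 4.85 counts in controls and 212 and 157 in knockdown libraries, a log2 fold change of 4.62 ± 0.39, which was 5.21 without control replicate 1. Array 8c (chr8:104460403-104463762, plus strand, 4 loci) had 15.2 and 6.48 counts against 186 and 159, a log2 fold change of 4.04 ± 0.37, which was 4.86 without control replicate 1. It lies opposite an intron of Terb1, a meiotic telomere gene, which had 0 counts. Arrays 5b and 8c were the 2 called arrays with a control library at the filter level of 0.511 CPM. In each this was control replicate 1 alone, at 1.21 CPM in 5b and 0.777 CPM in 8c. Both knockdown libraries were above that level, so 5b and 8c would have passed through the knockdown libraries alone.

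Array 19b (chr19:59604861-59607951, plus strand, 3 loci) had 8.57 and 5.96 counts in controls and 133 and 179 in knockdown libraries, a log2 fold change of 4.38. Array Xa (chrX:9673478-9680938, minus strand) had 13 loci and whole counts in every library, so that its reads were not divided with other places. It had 2 and 1 counts in controls against 69 and 84, a ratio of 50.9 with a 95% counting interval of 17.1 to 250. Array 1a (chr1:29608343-29611967, plus strand, 5 loci) had 1 and 1 counts in controls against 23.4 and 41.2, a ratio of 31.9 (8.49 to 269). Array 19a (chr19:7837351-7842128, plus strand, 5 loci) had 0 counts in both controls and 27.8 and 24.7 in knockdown libraries, at least 17.6-fold higher when set against 3 counts over the control group. These intervals and floors cover counting error only.

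The other 6 of the 15 were at 0.90 to 5.09 counts in each control library and at 31.0 to 73.6 in each knockdown library. They were 13a (chr13:93109371-93114147, plus strand, log2 fold change 4.73), 5a (chr5:14999878-15004191, minus strand, 4.23), 5c (chr5:96057192-96061968, plus strand, 4.05), 2a (chr2:25744667-25747270, minus strand, 4.01), 7a (chr7:142839626-142844402, minus strand, 3.92) and 15b (chr15:91116409-91119476, plus strand, 3.87). In each of them both knockdown libraries lay above both controls. The filter fixed this, since all of them passed it only through the knockdown libraries. Without control replicate 1 the value was 5.97 for 13a, 4.80 for 2a and 3.29 for 7a, and without control replicate 2 it was 4.06 for 13a and 5.13 for 7a. Of the 15, 11 were called in every fit that left out 1 library; 1a, 2a, 5c and 15b were not called without control replicate 2, with adjusted p from 0.0524 to 0.0841 there (edgeR).

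Among the 14 remaining called arrays, 3a (chr3:12585673-12589287, plus strand) had 0 counts in both controls and 103 and 40.2 in knockdown libraries, at least 47.6-fold higher. The 6 others with 0 control counts were at least 7.65-fold to 16.3-fold higher. Arrays 8a (chr8:3948379-3951470) and 8d (chr8:114393638-114396729), both on the minus strand, have 4 loci of the same lengths at the same offsets over 3092 bp. Array 8a had 0 and 4.46 counts in controls and 57.2 and 19.8 in knockdown libraries, and 8d had 6.02 and 1.97 against 14.8 and 39.4. The knockdown library with more counts thus differed between these alike arrays. Arrays 8d and 2b were not called by DESeq2, with adjusted p of 0.0518 and 0.0948.

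**Figure D3:**
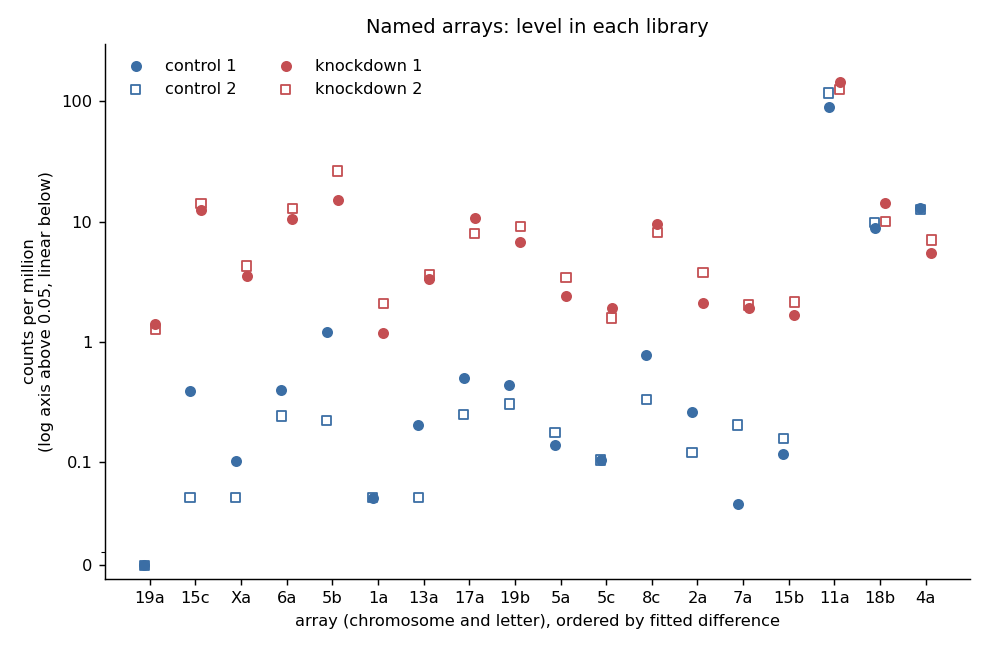
Points give the CPM of each library for the 15 arrays called higher, the 1 called lower (4a) and the abundant arrays 11a and 18b, ordered by the fitted difference (log axis above 0.05, linear below). In the arrays called higher every knockdown point lies above every control point. The filter fixes this for those that passed it only through the knockdown libraries. Arrays 11a and 18b are not called.

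The reads of an array were spread along it in different ways, shown here per length in the deposited TPM, a level scaled to transcript length. In 15c, all 4 tested loci of 7 were called, with log2 fold changes of 4.76 to 7.38, and the first locus of 1440 bp was at 0.05 and 0.00 TPM in controls and 4.88 and 6.02 TPM in knockdown libraries. In 5b all 5 loci were called, at 4.24 to 7.97, and the last locus of 648 bp had the highest level, 2.70 and 0.71 TPM in controls against 28.5 and 32.8 TPM. The other 4 loci of 5b were at 1.24 to 9.25 TPM in the knockdown libraries. All 4 loci of 17a (3.63 to 5.39) and all 3 of 19b (4.17 to 4.71) were called as well.

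In other arrays a single stretch carried the reads. In 6a, the fourth locus of 1080 bp held 205 of the 207 and 252 of the 252 counts of the knockdown libraries, at 15.7 and 19.3 TPM against 0.62 and 0.37 TPM in controls, and the loci of 927, 306 and 252 bp had 0 counts. In 1a the fourth of 5 loci, of 1146 bp, was at 1.66 and 2.83 TPM in knockdown libraries and 0 in controls. In Xa the called loci were the last 3 of 13, at 2.50 to 4.98 TPM in knockdown libraries, and the first 9 were at 0.24 TPM or less in every library. In each array that was itself called and had 2 or more tested loci, all tested loci lay on the same side of 0, which the filter on low counts fixes for loci that passed it only through the knockdown libraries.

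**Figure D4:**
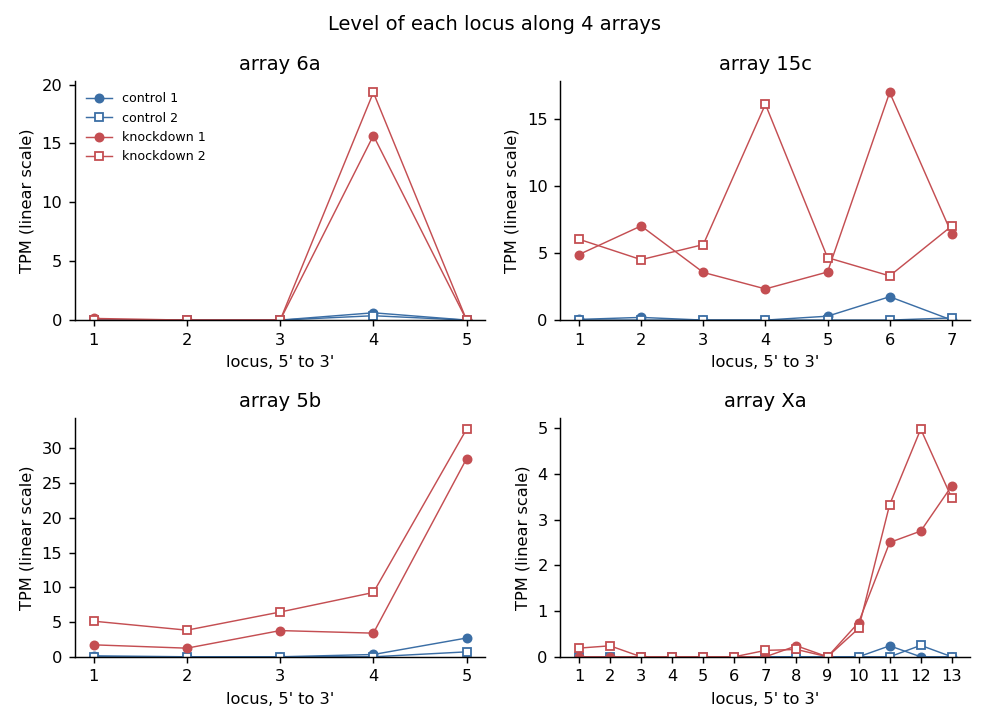
Points give the TPM of each locus from the 5' to the 3' end in arrays 6a, 15c, 5b and Xa, 1 line per library (linear axes). Knockdown levels peak at locus 4 in 6a, at locus 5 in 5b and in the last 3 loci of Xa, and are seen at every locus of 15c, where the short loci 4 and 6 differ between the knockdown libraries.

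A locus of 927 bp recurred among the called arrays. It was the commonest length in them, found 13 times where the next commonest was found 5 times, and was picked out after the calls were seen, so its counts are a description. In all, 36 member arrays held 1 such locus. The locus overlapped the one before it by 154 bases in 18 of the 36, as in the Gm42863 junction printed above, and the one after it by 19 bases in 25. In 15 arrays the locus before it began 1286 bases upstream, with a length of 1440 bp in 9 and of 1386 bp in 6. Both 154 and 19 leave a remainder of 1 on division by 3, so at such a junction the second locus is read in a frame 1 base back from the first. Array 15c has no 927 bp locus, but its first locus is also 1440 bp long, and its loci 2 and 3 (585 and 339 bp) with the 3 bases between them come to 927.

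The 36 arrays summed to 64.4 and 30.3 counts in controls and 1039 and 1275 in knockdown libraries, 2.42 ± 1.23 against 59.1 ± 8.62 CPM (SD, n = 2 each) and a ratio of 24.4. Of these arrays 13 were tested and 13 were higher, beside 5.27% of all tested rows. The length was picked from the called arrays, which raises the share called. The log2 fold changes were 3.07 to 7.75 with a median of 4.73, and 11 of the 13 passed the filter only through the knockdown libraries. The 23 that were not tested summed to 1 and 4.12 counts in controls and 46.8 and 45.9 in knockdown libraries. Of the 2874 arrays with no such locus, 56 were tested, 16 were higher, 1 was lower, and the median was 0.08. The 927 bp locus itself was seldom the one with reads: 2 of the 36 were tested, and the one in 5b was called while the one in 8c was not (adjusted p = 0.0641).

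**Figure D5:**
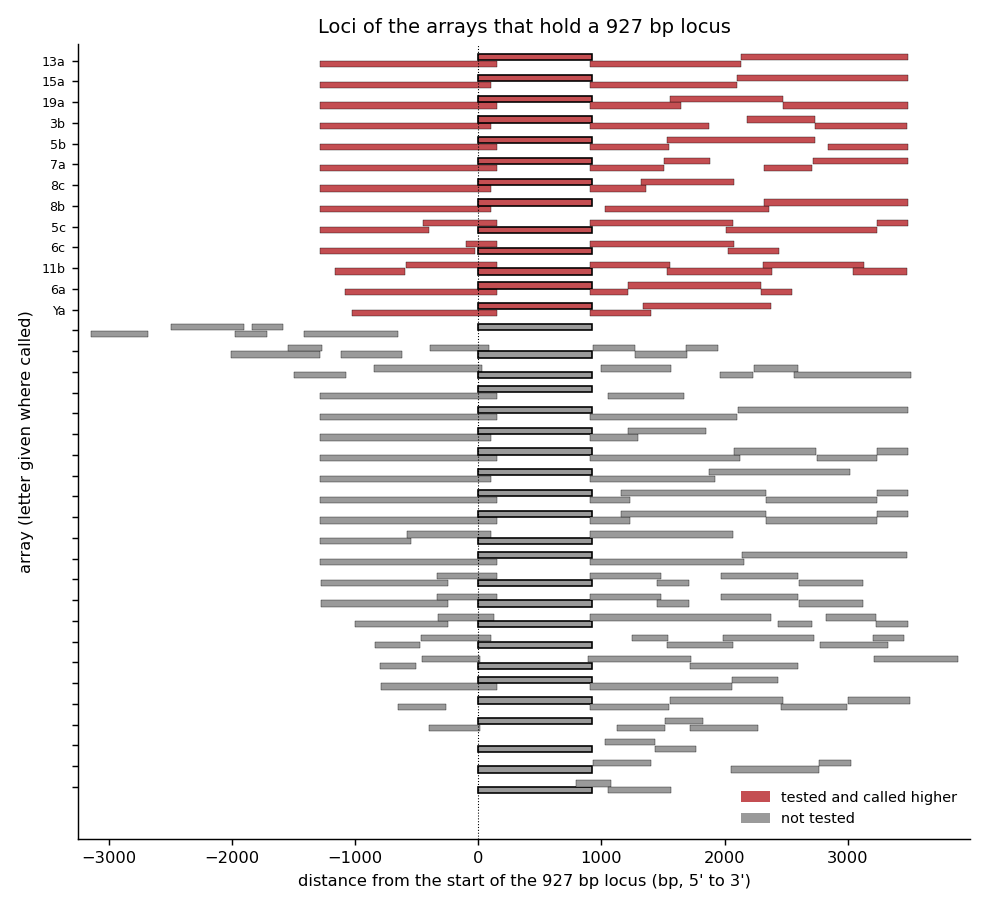
Each row is 1 of the 36 arrays with a 927 bp locus (outlined), drawn to scale in bp from the start of that locus in the 5' to 3' direction, with neighbouring loci offset vertically so that overlaps can be seen. The 13 red arrays were tested and called higher, the grey ones were not tested, and the first locus of 8 red and 7 grey arrays begins 1286 bp upstream.

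The same length was looked for in the 1680 arrays that hold a locus of 1500 bp or more, where 47 had it. Of these, 29 were tested and 28 were higher, beside 5.27% of all tested rows, with a median of 4.33. The filter was passed only through the knockdown libraries by 23 of the 29, which therefore had to be higher there. The 47 summed to 11.5 and 5.75 CPM in controls and 158 and 157 CPM in knockdown libraries. The exception (chr15:7540860-7545942, plus strand) was at 5.47 and 1.85 counts in controls against 14.4 and 17.7 (adjusted p = 0.0538, edgeR). The long-locus arrays without the length had a median of -0.42 over 640 tested, with 49 higher and 6 lower. Near the length limit, the 72 short-locus arrays whose longest locus was within 100 bp under it had a summed ratio of 3.56, and the 48 long-locus arrays within 100 bp over it had 4.17. The 954 arrays of 3 loci had a summed ratio of 1.64, and the 4373 pairs, which miss the minimum by 1 locus, 1.02. These differences between sets were not tested.

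The most abundant array was not called. Array 11a (chr11:6006689-6010152, plus strand, 7 loci) lies opposite an intron of Camk2b, a calcium-dependent protein kinase gene, and had 1755 and 2295 counts in controls and 2826 and 2469 in knockdown libraries (log2 fold change 0.41 ± 0.16, adjusted p = 0.161, edgeR). Its last locus, of 444 bp, was called alone: 94.8 and 96.0 TPM in controls and 187 and 156 TPM in knockdown libraries, a log2 fold change of 0.85 (adjusted p = 0.0163). The other 6 loci of 11a had log2 fold changes of -0.02 to 0.47 and were not called. Camk2b itself was not called (log2 fold change 0.62, adjusted p = 0.126). Array 18b (chr18:30268304-30271131, plus strand, 5 loci) overlaps an exon of the long noncoding gene AC102496.1 and had 174 and 193 counts in controls and 282 and 198 in knockdown libraries (log2 fold change 0.41, adjusted p = 0.325). One of its knockdown libraries lay near the controls.

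One array was lower. Array 4a (chr4:114135482-114140087, minus strand, 9 loci, intergenic) had 253 and 248 counts in controls and 109 and 138 in knockdown libraries, a log2 fold change of -0.995 ± 0.21 (adjusted p = 0.0216, edgeR). Its 5 tested loci were at -1.12 to -0.65 and 0 of them were called, with 4a's level spread over 8 of its 9 loci. The call was lost without control replicate 1 (adjusted p = 0.064), without control replicate 2 (0.115) and without knockdown replicate 1 (0.122). Skint11, the nearest gene, 23297 bp away, had 0 counts.

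Of chromosome Y's 898 arrays, 3 had any count, and together they were at 3.74 and 2.28 counts in controls and 32.1 and 22.4 in knockdown libraries. Array Ya (chrY:2020854-2024255, minus strand, 4 loci, 1 of 927 bp) had 2.74 and 2.28 of these in controls and 21.0 and 22.4 in knockdown libraries, and was called higher with a log2 fold change of 3.07 (adjusted p = 0.00901, edgeR). By place, 22 of the 49 tested intergenic arrays were called higher, 5 of 11 opposite an intron, 2 of 6 in an intron of a gene on the same strand and 0 of 3 over an exon on the same strand, beside 5.27% of all tested rows. The filter was passed only through the knockdown libraries by 23 of the 49, 3 of the 11, 3 of the 6 and 0 of the 3.

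Of the 30 genes that hold a called array or lie nearest to it, 29 were in the files and 19 of these had 0 counts, where 60.6% of all 54838 genes had 0 counts in every library. Of the 7 that were tested 2 were higher, beside 5.75% of all tested rows. These 2 passed the filter only through the knockdown libraries and so had to be higher there. Cd209c, a C-type lectin gene, holds array 8a in an intron on its own strand and had 1 and 3 counts in controls and 75 and 53 in knockdown libraries (log2 fold change 4.94, adjusted p = 7.44e-04, edgeR). A530064D06Rik lies 9210 bp downstream of 17a on the same strand and had 4 and 4 counts in controls and 64 and 55 in knockdown libraries (log2 fold change 3.87, adjusted p = 9.08e-04). The other 5, among them Dynlt3 10475 bp downstream of Xa, Cnot6l 8365 bp from 5c and Pdk4 4496 bp from 6b, were not called, at -0.23 to 0.65.

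Of 35 genes known to silence retroelements in the files 34 were tested, and 3 were higher and 2 lower, Setdb1 included, where 5.75% of all tested rows were higher and 1.8% lower, with a median log2 fold change of -0.14. Resf1, a regulator of retroelement silencing that works with SETDB1, was at 56.7 and 65.5 CPM in controls and 241 and 174 CPM in knockdown libraries (log2 fold change 1.79, adjusted p = 4.3e-04, edgeR). Atf7ip, the SETDB1 cofactor, rose by 1.10 (adjusted p = 0.00385), and Zfp809, a zinc finger that binds retroviral sequence, by 0.92 (adjusted p = 0.043). Suv39h2, another H3K9 methyltransferase, fell by 0.82 (adjusted p = 0.0295). Trim28 was at -0.10 and was not called. Of 16 genes of double-stranded RNA and retroelement DNA sensing in the files, adaptors and enzymes included, 13 were tested. Their median log2 fold change was 0.41, and 4 were higher and 0 lower, beside the same 5.75% and 1.8% of all tested rows. They were Tmem173, the gene of the adaptor STING (0.76, adjusted p = 0.00891, edgeR), and Ddx58, the gene of the RNA sensor RIG-I (0.74, adjusted p = 0.0125). The others were Samhd1, a nucleotide hydrolase (0.55, adjusted p = 0.0484), and Zbp1, a sensor of Z-form nucleic acid (3.11, adjusted p = 0.0333). Zbp1 had 3 and 1 counts in controls and 25 and 11 in knockdown libraries. It passed the filter only through the knockdown libraries and so had to be higher there.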

How the data were processed

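RNA of 2 control and 2 Setdb1 knockdown libraries was made into libraries with a directional kit, per the labels' protocols. The submitters' processing notes name RSEM, STAR, DESeq2 and FastQC without versions, and mm10 and GRCm38 as builds. The deposited expected counts, per the file headers, are RSEM estimates that divide reads fitting several features, so near-identical or overlapping loci share reads by an estimate. The deposited TPM values are divided by effective length and scaled to 1 sum per library. The strand setting used in counting is not given in the sources used here, so reads of opposite strands may not be told apart.

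Expected counts were rounded after summing over each array and tested with edgeR 4.0.16 (R 4.3.3, limma 3.58.1): TMM scaling, filterByExpr, the quasi-likelihood F-test and Benjamini-Hochberg adjustment over all rows, threshold 0.05. Counts within 0.005 of a whole number were called whole. Ratios with 1 to 3 control counts have exact 95% intervals, and a floor is 3 counts over the group. The fit was tested on simulated data. Members, gene lists and alternatives were chosen with earlier results of these data known. Named arrays were up to 15 called higher and up to 10 called lower (1 was) with the smallest p, the 8 most abundant and the 3 with most loci, and named list genes were the 4 with the smallest p, plus Zfp809, added after its value was seen. Alternatives were DESeq2 1.42.0, its size factors, other filters, chaining gaps of 500 and 2000 bp, replicate blocks and leaving out each library. Array letters follow position on the chromosome. The level of 1 marker gene is not reported here. The genome sequence of the called arrays was not used here.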

Additional observations from a re-analysis of the deposited data

How the results depend on the processing

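With no filter on low counts, 0 loci and 0 arrays were called in either direction (edgeR), and 0 of all rows were called as well. Unadjusted p was under 0.05 for 169 of 876 loci and 94 of 401 arrays (edgeR). Setdb1 was at -2.47 with an adjusted p of 0.0881 (edgeR). With at least 1 CPM in 2 libraries, 27 of 46 tested loci were higher, beside 673 of all 12366 tested rows. Leaving out 1 library gave 15 to 39 loci and 11 to 28 arrays higher, the lowest without control replicate 2, and 0 to 1 loci and 0 to 2 arrays lower. Among all rows too, the fewest were called higher without control replicate 2, in both fits. DESeq2's size factors gave 2 arrays lower. The summed level, a log2 ratio of 0.75, was 1.06 without the most abundant array, 0.55 in deposited TPM, and 0.63 to 0.87 without 1 library. No result changed direction under the alternatives run.

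The labels number the libraries of each group, but deviations of same-numbered libraries had a correlation of -0.25 over 10843 rows, so the numbers do not pair them. With the replicate block, 45 loci and 29 arrays were higher and 1 locus and 2 arrays lower. Over all rows that block called 854 higher and 333 lower in the locus fit, and 804 and 325 in the array fit. With crossed pairing, chosen after seeing the data, 46 loci and 30 arrays were higher, array 11a among the latter, and 5 loci and 4 arrays lower. Over all rows it called 1469 higher and 916 lower in the locus fit, and 1320 and 757 in the array fit. In the main fits these numbers were 797 and 249, and 733 and 244, so calls rose among all rows too.

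With 2 libraries a group, the calls rest on few degrees of freedom. Most called arrays had under 10 counts in the controls, so their folds are imprecise, and arrays under the filter were not tested. Without a filter 29415 rows were tested in place of 13859 for loci, and the cause of the lost calls was not tested.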
